A study of Mus musculus with 12 samples.

Results

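Expression of 10 genes of the Notch pathway was examined in mouse N2A neuroblastoma cells: the receptors Notch1, Notch2 and Notch3, the ligands Dll1, Dll3 and Jag1, and the Hes and Hey family genes Hes1, Hes5, Hes6 and Hey1. They were chosen by gene symbol. Each of the 10 was carried by exactly 1 probe set of a whole-transcript array, out of 19938 genes with an assigned probe set. The arrays covered cells in which Dali, a long non-coding RNA, was knocked down with a stably integrated short hairpin RNA (KD cells), and control cells, which carried a scrambled hairpin without a target. Both kinds of cell were measured after 72 h of differentiation with 20 µM all-trans retinoic acid (RA) in medium with 2% serum, and while proliferating in 10% serum without RA, with 3 arrays in each of the 4 groups. All cells carried the hygromycin resistance used to select stably transfected clones. N2A cells derive from a mouse neuroblastoma, resemble neuronal progenitors and extend neurites in RA. Elsewhere in its text the study describes several clonal KD lines and a single control line. Its methods call the 3 samples of a group biological replicates, but the labels do not say whether these are separate clones or cultures of a clone, so the p-values measure the spread between these samples only. RA and the lower serum came together and cannot be told apart.

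Notch receptors are single-pass membrane proteins that are activated by Delta-like (Dll) and Jagged (Jag) ligands on a neighbouring cell. Ligand binding leads to cleavage of the receptor by an ADAM protease and gamma-secretase, and the released intracellular domain joins the DNA-binding protein Rbpj and a Mastermind coactivator to switch on target genes. The best known targets are the Hes and Hey genes, basic helix-loop-helix repressors that hold down proneural genes and keep neural progenitors from differentiating. Hes6 is an exception, since it opposes Hes1 and favours neuronal differentiation, and Dll3 acts inside the signalling cell and does not activate receptors on its neighbours.

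The upstream sequences of Hes5 and Hey2 are shown because each held 2 separate matches to the Rbpj site. That of Notch2 is shown because it was the receptor with the clearest difference in these arrays. Each runs from 250 bases before to 10 bases after the RefSeq start, 5′ to 3′ on the gene's own strand (GRCm38.p6). Capitals mark the Rbpj site GTGGGAA on either strand, read as TTCCCAC where it lies on the opposite one. The Hes5 stretch is chr4:154960673-154960932 (plus strand), the Hey2 stretch chr10:30842774-30843033 (minus strand) and the Notch2 stretch chr3:98013288-98013547 (plus strand).
Hes5: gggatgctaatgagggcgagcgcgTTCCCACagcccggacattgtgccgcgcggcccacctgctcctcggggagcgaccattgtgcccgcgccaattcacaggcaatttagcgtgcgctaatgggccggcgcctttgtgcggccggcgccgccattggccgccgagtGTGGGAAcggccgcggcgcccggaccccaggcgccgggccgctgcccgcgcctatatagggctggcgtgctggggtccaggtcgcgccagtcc
Hey2: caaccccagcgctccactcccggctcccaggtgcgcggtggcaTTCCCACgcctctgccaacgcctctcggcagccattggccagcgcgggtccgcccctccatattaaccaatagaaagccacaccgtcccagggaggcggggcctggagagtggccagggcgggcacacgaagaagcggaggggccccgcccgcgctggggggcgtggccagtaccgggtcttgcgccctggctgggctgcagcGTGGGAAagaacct
Notch2: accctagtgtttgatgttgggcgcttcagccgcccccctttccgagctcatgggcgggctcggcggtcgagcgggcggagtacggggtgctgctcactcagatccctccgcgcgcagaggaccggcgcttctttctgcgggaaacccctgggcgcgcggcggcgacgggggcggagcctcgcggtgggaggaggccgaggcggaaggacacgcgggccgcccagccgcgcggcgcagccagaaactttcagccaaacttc
RefSeq promoter windows, reaching 50 bases past the start, were matched for 8 of the 10 genes, Hes1 and Hey1 being the others. Of these 8, only Hes5 held the Rbpj site, at -226 on the opposite strand and at -83 on its own. Hey2, a Hey family gene outside the 10, held it at -207 and -4. The site was present in 6.38% of 32851 mouse windows of this length, and at 2 or more places in 0.256%. The N box CACNAG, searched on both strands and with overlapping matches counted, was found in the windows of 5 of the 8 genes (Notch1, Notch2, Notch3, Dll1 and Hes6, in Dll1 at 14 bases past the start only) and in 42.5% of all windows. No gene of the 8 held the E box CACGTG, which 7.15% of all windows did. The motif AGGTCA, to which retinoic acid receptors bind, lay upstream of Dll1 and Hes6, against 16.3% of all windows. Dll1 and Hes6 had 2 windows each and the others 1, while the shares are counted per window. A match is a description of the letters and not evidence of binding.

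Expression values are log2 intensities after the authors' normalisation, so a difference of 0.38 is a 1.3-fold change, the cutoff named in the methods. A gene is termed called here when it differed by at least 1.3-fold with a Benjamini-Hochberg adjusted p under 0.05 in limma, among the 9969 genes left after removal of the less variable ones. Notch2, Hes1 and Hey1 were left in and the other 7 were not. Those 7 were also fitted with all 19938 genes, and their adjusted p-values come from that fit. Levels of different genes are not compared with each other, since probe sets differ in brightness. Positions against the median level of all probe sets are given only as a rough guide to signal. In bulk RNA, fewer expressing cells and less RNA per cell cannot be told apart.

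The arrays of a group resembled each other closely (r between 0.992 and 0.996 over probe sets), and array medians lay between 7.15 and 7.21. Replicate 3 of the RA-treated KD cells had the highest median and the narrowest spread of values of the 12, and was the highest of its group for 7 of the 10 Notch genes and for 41.2% of all genes. Of the 16 sympathetic neuroblast markers 14 were measured, and 12 of them lay above the median level of all probe sets. This held for 1 of 6 Schwann cell and glial, 4 of 8 fibroblast and 0 of 8 endothelial and immune markers. Nefl and Nefm, neurofilament genes of maturing neurons, were the neuroblast markers below that median. Cyp26b1, which encodes an RA-degrading enzyme induced by RA, rose by 1.11 in KD cells and by 1.64 in control cells on the log2 scale with RA. Of the other 4 genes of that check, Stra6, a retinol transporter, was called lower with RA, by 0.41 in KD cells and by 0.61 in control cells, and Cyp26a1, Rarb and Dhrs3 were not called. No probe set was assigned to Dali, so its knockdown could not be checked on these arrays.

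None of the 10 Notch genes was called in any of the 5 comparisons. Only 3 of them, Notch2, Hes1 and Hey1, passed the variance filter and could be called, so the shares that follow stand beside 0 of 3. Among all genes past the variance filter, 7.71% were called between KD and control cells in RA and 6.96% while proliferating, 9.94% between RA-treated and proliferating KD cells, 9.34% between RA-treated and proliferating control cells, and 1.24% for the difference between both RA responses. The last share is 124 genes, which were 41 without replicate 3 of the RA-treated control cells. At an unadjusted p under 0.05 the counts of Notch genes were 1, 1, 3, 2 and 0 of 10 in the same order, where 33.0%, 30.1%, 31.0%, 28.1% and 14.8% of all genes passed, so no count lies above the share of all genes. The values of most of the 10 lay within a narrow band: across all 12 arrays their ranges spanned between 0.21 (Hes5) and 0.53 (Notch2) log2 units.

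**Figure D1:**
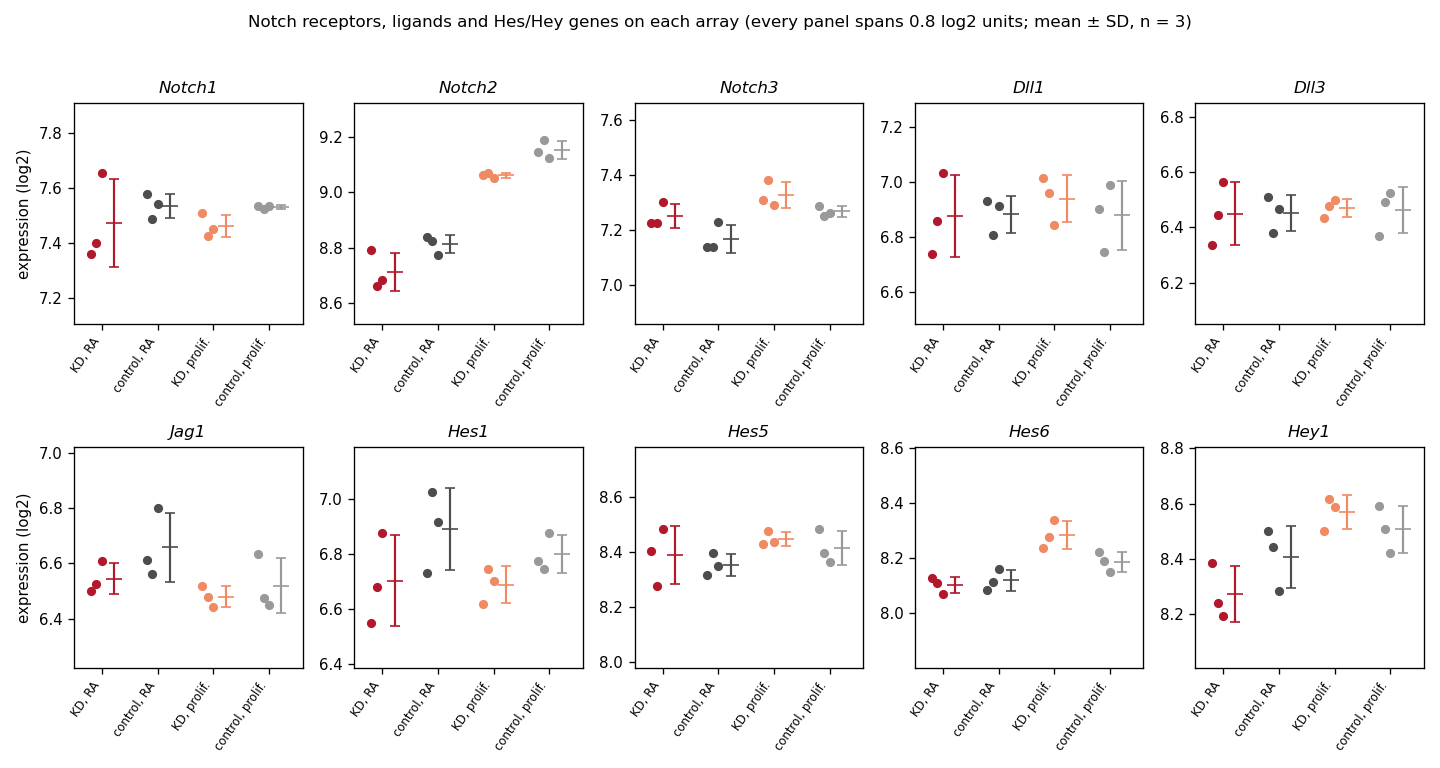
Expression of the 10 Notch genes on each array (y axis, log2 intensity; each panel spans 0.8 log2 units), with the arrays of the 4 groups as points and the group mean ± SD beside them (n = 3). Notch2 forms 2 separate levels, between 8.66 and 8.84 in RA and between 9.05 and 9.19 in proliferating cells, while the 12 values of every other gene span 0.47 log2 units or less.

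Among the receptors, Notch2 was the gene that differed most, and it did so with RA. Its values were 8.79, 8.66 and 8.68 in RA-treated KD cells and 8.84, 8.82 and 8.77 in RA-treated control cells. Proliferating KD cells had 9.06, 9.07 and 9.05, and proliferating control cells had 9.15, 9.19 and 9.13. All 6 RA arrays thus lay below all 6 proliferating arrays. In KD cells Notch2 averaged 8.71 ± 0.07 with RA and 9.06 ± 0.0089 while proliferating (SD, n = 3 each), a log2 change of -0.35 ± 0.045 (SE), or 1.27-fold lower with RA (adjusted p = 0.000101, limma). In control cells the averages were 8.81 ± 0.033 with RA and 9.15 ± 0.032 while proliferating, a change of -0.34 ± 0.045, or 1.27-fold lower (adjusted p = 0.000124, limma). Both stop just short of the 1.3-fold cutoff, and each 95% interval reaches past it, to a remaining level of 0.73 of the proliferating one in KD cells and 0.74 in control cells. The RA changes of KD and control cells, which share no arrays, differed by -0.0092 with a 95% interval of -0.15 to 0.13. Without replicate 1 of the RA-treated KD cells the change in those cells was -0.39 and the gene was called (adjusted p = 8.25e-05, limma).

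Between KD and control cells, Notch2 was 0.10 lower in RA and 0.091 lower while proliferating on the log2 scale, and neither difference passed the test (adjusted p = 0.107 and 0.145, limma). In order of level the 4 groups ran control proliferating, KD proliferating, control RA and KD RA. The neighbours of like treatment in that order did not differ past the test, and the arrays of the RA and proliferating groups were separated by a gap.

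Notch1, the receptor best known from neural progenitors, showed no difference past the test. Its values were 7.36, 7.40 and 7.66 in RA-treated KD cells and 7.58, 7.49 and 7.54 in RA-treated control cells, against 7.51, 7.43 and 7.45 in proliferating KD cells and 7.54, 7.52 and 7.54 in proliferating control cells. The RA-treated KD cells were spread most widely, through their replicate 3. Knockdown cells differed from control cells by -0.063 in RA, with a 95% interval of 0.87-fold to 1.06-fold, and by -0.069 while proliferating (0.86-fold to 1.05-fold). Without that replicate 3 the KD difference in RA was -0.15 and the RA change in KD cells was -0.081, against 0.01 with it.

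Notch3 read 7.23, 7.23 and 7.30 in RA-treated KD cells and 7.14, 7.14 and 7.23 in RA-treated control cells, against 7.31, 7.38 and 7.29 in proliferating KD cells and 7.29, 7.25 and 7.26 in proliferating control cells. Its largest change was with RA in control cells, -0.099 ± 0.045, where the groups did not overlap but the test was not passed (adjusted p = 0.172, limma, all genes).

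The ligands showed no difference past the test. Dll1, the ligand that newborn neurons present to their neighbours, averaged 6.88 ± 0.15 in RA-treated KD cells and 6.88 ± 0.067 in RA-treated control cells, against 6.94 ± 0.086 in proliferating KD cells and 6.88 ± 0.12 in proliferating control cells (SD, n = 3 each). The 4 groups overlapped throughout. Its KD difference in RA was -0.0056, with a 95% interval of 0.88-fold to 1.13-fold. Dll3 varied least between groups, with means of 6.45 in RA-treated KD cells, 6.45 in RA-treated control cells, 6.47 in proliferating KD cells and 6.46 in proliferating control cells. Jag1, the Jagged ligand of the set, averaged 6.54 ± 0.056 in RA-treated KD cells and 6.66 ± 0.13 in RA-treated control cells, against 6.48 ± 0.038 in proliferating KD cells and 6.52 ± 0.1 in proliferating control cells. Its largest change, 0.14 with RA in control cells, leant on replicate 3 of the RA-treated control cells at 6.80, and was 0.069 without it. That change had an adjusted p of 0.199 (limma, all genes).

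Hes1, the general effector of Notch signalling in progenitors, had the largest KD differences of the 10 genes, and neither passed the test. Its values were 6.55, 6.68 and 6.88 in RA-treated KD cells and 6.73, 7.03 and 6.92 in RA-treated control cells. Proliferating KD cells had 6.62, 6.75 and 6.70, and proliferating control cells had 6.78, 6.75 and 6.88. The groups overlapped in both comparisons. The KD difference was -0.19 ± 0.087 in RA (SE; adjusted p = 0.123, limma) and -0.11 ± 0.087 while proliferating (adjusted p = 0.378, limma). The first had a 95% interval of 0.77-fold to 1-fold, the furthest of the 10 genes on the side of a decrease. It moved with single arrays, to -0.28 without replicate 3 (adjusted p = 0.0348, limma, all genes, below the fold cutoff) and -0.11 without replicate 1 of the RA-treated KD cells, and to -0.12 without replicate 2 of the RA-treated control cells. The difference while proliferating was -0.071 without replicate 3 of the proliferating control cells.

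Hes5, the Hes gene most strictly tied to Notch input in neural progenitors, held 2 separate Rbpj sites in the sequence above. It showed no difference past the test either. Its values were 8.40, 8.28 and 8.48 in RA-treated KD cells and 8.31, 8.39 and 8.35 in RA-treated control cells, against 8.43, 8.47 and 8.43 in proliferating KD cells and 8.48, 8.39 and 8.36 in proliferating control cells. All 4 groups overlapped with their comparison group. The KD differences were 0.035 in RA and 0.032 while proliferating, and the RA changes were -0.058 in KD cells and -0.061 in control cells. The 95% intervals of these 4 changes ran at most from 0.88-fold to 1.11-fold.

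Hes6, the member that opposes Hes1, was lower with RA in KD cells. It read 8.13, 8.11 and 8.07 in RA-treated KD cells and 8.08, 8.11 and 8.16 in RA-treated control cells, against 8.24, 8.28 and 8.34 in proliferating KD cells and 8.22, 8.19 and 8.15 in proliferating control cells. In KD cells the RA arrays lay below all proliferating arrays, with a change of -0.18 ± 0.044 (SE), or 1.13-fold lower (adjusted p = 0.00983, limma, all genes). In control cells the change was -0.067 ± 0.044 (adjusted p = 0.366). The difference between these RA responses was -0.11 with a 95% interval of -0.25 to 0.02, and did not pass the test (adjusted p = 0.42, limma, all genes).

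Hey1, a Hey repressor also used in blood vessel formation, followed a similar course. It read 8.39, 8.24 and 8.19 in RA-treated KD cells and 8.50, 8.44 and 8.28 in RA-treated control cells, against 8.50, 8.62 and 8.59 in proliferating KD cells and 8.59, 8.51 and 8.42 in proliferating control cells. In KD cells the RA and proliferating arrays did not overlap, and in control cells they did. The RA change was -0.30 ± 0.07 in KD cells, 1.23-fold lower (adjusted p = 0.00659, limma), and -0.099 ± 0.07 in control cells (adjusted p = 0.345, limma). The difference between the RA responses, -0.20 with a 95% interval of -0.41 to 0.019, did not pass the test (adjusted p = 0.343, limma), so a response in KD cells alone is not shown.

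By the adjusted p alone, in the fit with all genes, 0 of the 10 Notch genes passed between KD and control cells in RA and 0 while proliferating, where 21.6% and 18.6% of all genes did. With RA, 3 passed in KD cells (Notch2, Hes6 and Hey1) and 1 in control cells (Notch2), each lower with RA, where 20.9% and 17.6% of all genes passed, and 13.1% and 8.92% did so with a lower level. For the difference between the RA responses, 0 passed, where 0.667% of all genes did. With groups that do not overlap as the measure, the counts were 0 of 10 for KD against control in RA, 4 while proliferating (Notch3 and Hes6 higher, Notch1 and Notch2 lower), 3 for RA in KD cells (Notch2, Hes6 and Hey1 lower) and 2 for RA in control cells (Notch2 and Notch3 lower). The shares of all genes were 34%, 38.7%, 34.7% and 33.5%. The counts of 4 and 3 are thus at about the share of all genes.

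The intervals bound what the arrays could have missed in the signal of each probe set. Dll1, Dll3, Jag1 and Hes1 lay below the median level of all probe sets, at percentiles 44.9, 36, 37.8 and 42.4. All measured endothelial and immune markers lay below it too. Notch1 and Notch3 lay above it, at percentiles 55.5 and 51.4, as did 4 of 8 fibroblast markers. Whether the signal of any of the 10 Notch genes exceeded background was not tested. The intervals, those of the genes just named above all, may thus not bound a change in the transcript. For KD against control, the 95% intervals of all 10 Notch genes lay within 1.3-fold in both directions, in RA and while proliferating, which held for 84.3% and 86.1% of all genes. In RA the interval of Hes1 stayed inside only barely, with a lower end of -0.377 against -0.379 for 1.3-fold, and it lay outside under 14 of 19 alternatives, so that 9 of 10 is the firmer count there. With RA, 8 of 10 lay within it in KD cells (not Notch2 and Hey1) and 9 of 10 in control cells (not Notch2), where 84.4% and 85.9% of all genes did. For the difference between the RA responses, 9 of 10 lay within it (not Hey1), where 74.8% of all genes did. The median change of the 10 genes was -0.04 for KD against control in RA, 0.02 for KD against control while proliferating, -0.06 for RA in KD cells and -0.035 for RA in control cells. Over all genes those medians were -0.028, -0.012, -0.015 and 0.0026.

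**Figure D2:**
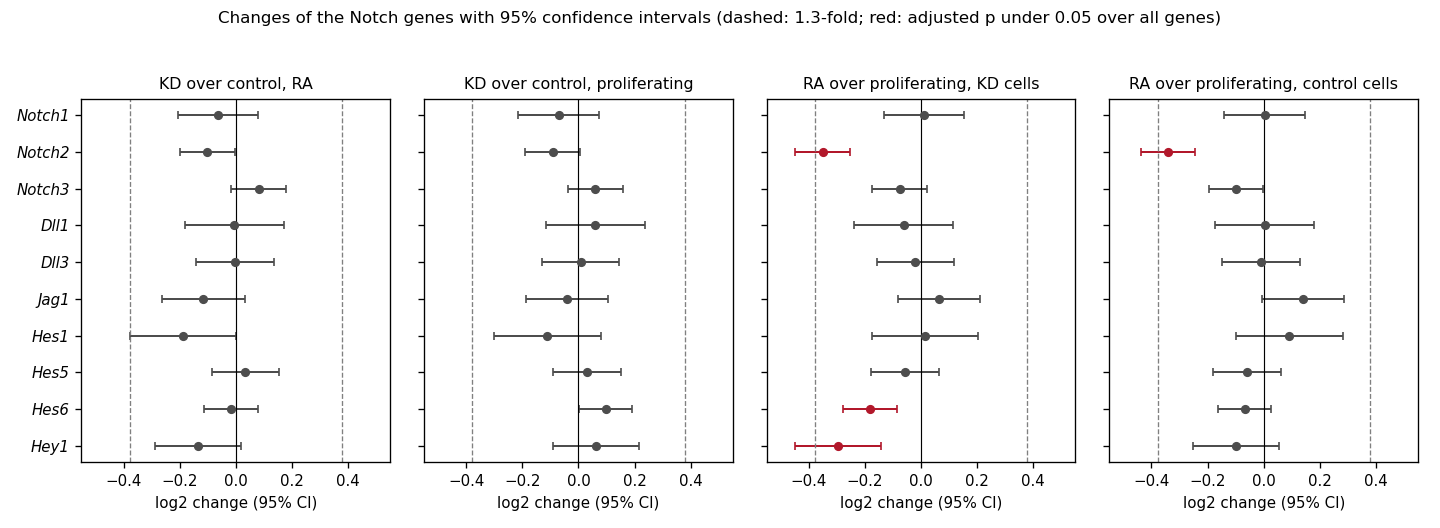
Log2 change of each Notch gene (x axis, point) with its 95% confidence interval (bar) in 4 comparisons, with dashed lines at 1.3-fold and an adjusted p under 0.05 over all genes in red. The KD intervals stay inside the dashed lines, that of Hes1 in RA only barely, and Notch2 with RA sits near -0.35 in KD cells and near -0.34 in control cells.

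The genes whose values over the 12 arrays ran most nearly parallel to those of Notch2 were Cacnb1 (r = 0.992), Adcyap1r1 (r = 0.99) and Stk40 (r = 0.99), among 8502 named genes. Those that ran most nearly opposite were Ccne1 (r = -0.988), Prim1 (r = -0.982) and Brip1 (r = -0.981), which act in entry into S phase, DNA replication priming and DNA repair. For Hey1 they were Smndc1 (r = 0.974), Scnm1 (r = 0.945) and Bak1 (r = 0.943), and on the opposite side Dact1 (r = -0.909), S1pr1 (r = -0.896) and Traip (r = -0.893). Notch2 and Hey1 were taken for this after their values were seen, and the 4 groups are shared by all genes, so these are descriptions of common group patterns.

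Beyond the 10, 77 further genes of the pathway were listed by role and 73 of them were measured, 38 past the variance filter. Of the 73, 2 were called lower and 0 higher in KD cells in RA, and 2 lower and 2 higher in proliferating KD cells. With RA, 1 was called higher and 1 lower in KD cells, and 2 higher and 1 lower in control cells. Set against the 38 past the filter, the called shares were 5.26% between KD and control cells in RA, 10.5% while proliferating, 5.26% with RA in KD cells and 7.89% in control cells, beside 7.71%, 6.96%, 9.94% and 9.34% of all genes past it, and nothing particular to the pathway can be read from counts this small. Rbpj, Nrarp and Notch4, genes at the core of the pathway, did not pass the variance filter and could not be called. In the fit with all genes, none of their KD differences or RA changes had an adjusted p under 0.05 (limma). The group means of Rbpj and Nrarp lay below the array medians, and whether their signal exceeded background was not tested. Rbpj had KD differences of -0.039 in RA and -0.054 while proliferating, and RA changes of 0.036 in KD cells and 0.021 in control cells. Nrarp, a feedback inhibitor that Notch induces, had KD differences of -0.07 in RA and -0.10 while proliferating, neither past the test, and changed by 0.0021 with RA in KD cells and -0.029 in control cells. Notch4, the other receptor, had KD differences of -0.032 in RA and 0.0078 while proliferating.

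**Figure D3:**
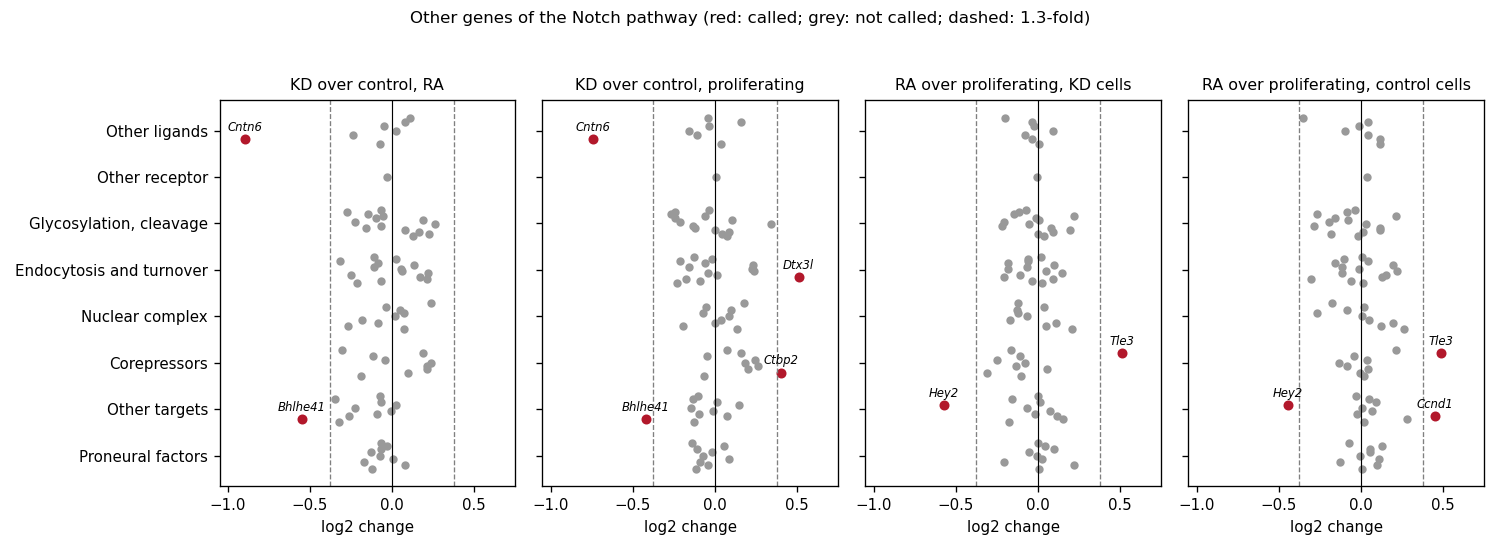
Log2 change (x axis) of the 73 other genes of the pathway, by role (rows), in 4 comparisons; red points with names are called, grey points are not, and dashed lines mark 1.3-fold. Most points lie inside the lines, with Cntn6 and Bhlhe41 at the left in both KD comparisons and Tle3 and Hey2 at opposite sides in both RA comparisons.

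Among the 7 other ligands, Cntn6, a contactin of the neuronal surface that can act as a Notch ligand, was called lower in KD cells. It read 4.76, 5.66 and 5.29 in RA-treated KD cells, against 6.33, 6.04 and 6.03 in RA-treated control cells, and 5.24, 5.32 and 5.26 in proliferating KD cells, against 6.05, 5.90 and 6.10 in proliferating control cells. All KD arrays lay below all control arrays. All values of Cntn6 lay below the array medians, and whether its signal exceeded background was not tested. The difference was -0.90 ± 0.17 in RA, 1.86-fold lower (adjusted p = 0.00174, limma), and -0.74 ± 0.17 while proliferating, 1.67-fold lower (adjusted p = 0.00575, limma). Jag2, the other Jagged ligand, was lower with RA by 0.20 in KD cells and by 0.35 in control cells on the log2 scale, short of the fold cutoff (adjusted p = 0.00747 and 0.000176, limma).

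Of the 14 genes of receptor glycosylation and cleavage, 7 of them past the variance filter, 0 were called in any comparison. Lfng, a Fringe glycosyltransferase that tunes which ligands a receptor answers to, came nearest. It was higher in KD cells by 0.26 in RA and by 0.34 while proliferating (adjusted p = 0.00427 and 0.000915, limma). Psenen, a gamma-secretase subunit, was lower in KD cells by 0.28 in RA and by 0.24 while proliferating (adjusted p = 0.00201 and 0.00453, limma). Furin, the protease that cuts the receptor during its maturation, was lower with RA by 0.22 in KD cells and by 0.29 in control cells (adjusted p = 0.00207 and 0.000356, limma).

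Of the 14 genes of endocytosis and turnover, Dtx3l, a Deltex family ubiquitin ligase, was called, in proliferating cells. It read 7.27, 7.49 and 7.52 in proliferating KD cells, against 6.91, 6.97 and 6.88 in proliferating control cells, a rise of 0.51 ± 0.067 or 1.42-fold (adjusted p = 0.000201, limma). In RA it read 7.31, 7.16 and 7.19 in KD cells, against 7.09, 7.05 and 7.0 in control cells, a difference of 0.17 that did not pass the test (adjusted p = 0.0679, limma). The 2 KD differences were not shown to differ from each other (adjusted p = 0.102, limma).

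None of the 9 genes of the nuclear complex, 4 of them past the variance filter, was called in any comparison. Among the 9 corepressors, Ctbp2 and Tle3 were. Ctbp2, a corepressor recruited to Notch targets, read 9.23, 9.32 and 9.23 in proliferating KD cells, against 8.84, 8.86 and 8.86 in proliferating control cells, a rise of 0.40 ± 0.054 or 1.32-fold (adjusted p = 0.000217, limma). Without replicate 2 of the proliferating KD cells it was 0.37, below the fold cutoff. The neighbours of Ctbp2 were taken as the 25 nearest protein-coding genes on each side whose mean level lay above the median of all genes. These 50 genes had a median KD difference of 0.14 in the same comparison, against 0.019 over all 9639 such genes. Of the 50, 74% were positive, and their part in the result was not tested. In RA Ctbp2 differed by 0.1 (adjusted p = 0.183, limma), and the KD differences of both media were not shown to differ from each other (adjusted p = 0.0691, limma).

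Tle3, a Groucho family corepressor with which Hes proteins act, rose with RA in KD and in control cells. It read 10.37, 10.38 and 10.43 in RA-treated KD cells and 10.23, 10.28 and 10.10 in RA-treated control cells, against 9.87, 9.90 and 9.87 in proliferating KD cells and 9.74, 9.70 and 9.71 in proliferating control cells. The rise was 0.52 ± 0.049 or 1.43-fold in KD cells (adjusted p = 9.93e-06, limma) and 0.49 ± 0.049 or 1.40-fold in control cells (adjusted p = 1.45e-05, limma). Every RA array lay above every proliferating array. Tle3 was also higher in KD cells by 0.19 in RA and 0.16 while proliferating (adjusted p = 0.0115 and 0.0259, limma), below the fold cutoff. The 50 neighbours of Tle3, chosen as for Ctbp2, had median KD differences of 0.086 and 0.14 in those comparisons. Their part in the result was not tested.

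Of the 10 other target genes, Hey2 was called lower with RA in both kinds of cell. Hey2 is the Hey repressor with the 2 separate Rbpj sites shown above. It read 6.68, 6.70 and 6.53 in RA-treated KD cells and 6.79, 6.63 and 6.41 in RA-treated control cells. Proliferating KD cells had 7.21, 7.28 and 7.13, and proliferating control cells had 7.16, 7.02 and 6.98. The RA arrays lay below all proliferating arrays. The change was -0.57 ± 0.088 in KD cells, 1.49-fold lower (adjusted p = 0.00041, limma), and -0.44 ± 0.088 in control cells, 1.36-fold lower (adjusted p = 0.00246, limma). Without replicate 3 of the RA-treated control cells the change in control cells was -0.34, below the fold cutoff. Hes5, which also held 2 Rbpj sites upstream, had RA changes of -0.058 in KD cells and -0.061 in control cells.

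Bhlhe41, a basic helix-loop-helix repressor related to the Hes genes that also takes part in the circadian clock, was called lower in KD cells. It read 5.86, 5.68 and 5.94 in RA-treated KD cells, against 6.37, 6.41 and 6.35 in RA-treated control cells, and 5.53, 5.86 and 5.64 in proliferating KD cells, against 6.08, 6.22 and 5.99 in proliferating control cells. The difference was -0.55 ± 0.088 in RA, 1.46-fold lower (adjusted p = 0.000683, limma), and -0.42 ± 0.088 while proliferating, 1.34-fold lower (adjusted p = 0.0038, limma). In proliferating cells it was below the fold cutoff without KD replicate 1 (-0.35) or without control replicate 2 (-0.36). All values of Bhlhe41 lay below the array medians, and whether its signal exceeded background was not tested. Its paralogue Bhlhe40 was lower in KD cells in RA by 0.32, short of the cutoff (adjusted p = 0.000741, limma).

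Ccnd1, the G1 cyclin D1 and a target that Notch shares with other growth signals, was called with RA in control cells. It read 11.36, 11.44 and 11.44 in RA-treated control cells, against 10.96, 10.97 and 10.95 in proliferating control cells, a rise of 0.45 ± 0.047 or 1.37-fold (adjusted p = 2.06e-05, limma). In KD cells it read 11.19, 11.13 and 11.13 with RA, against 10.95, 11.10 and 11.05 while proliferating, a difference of 0.12 that did not pass the test (adjusted p = 0.081, limma). The RA response was smaller in KD cells than in control cells by 0.33 ± 0.067 (adjusted p = 0.0355, limma). Myc, the other growth gene of the list, was lower in KD cells in RA by 0.34, short of the cutoff (adjusted p = 0.000114, limma).

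**Figure D4:**
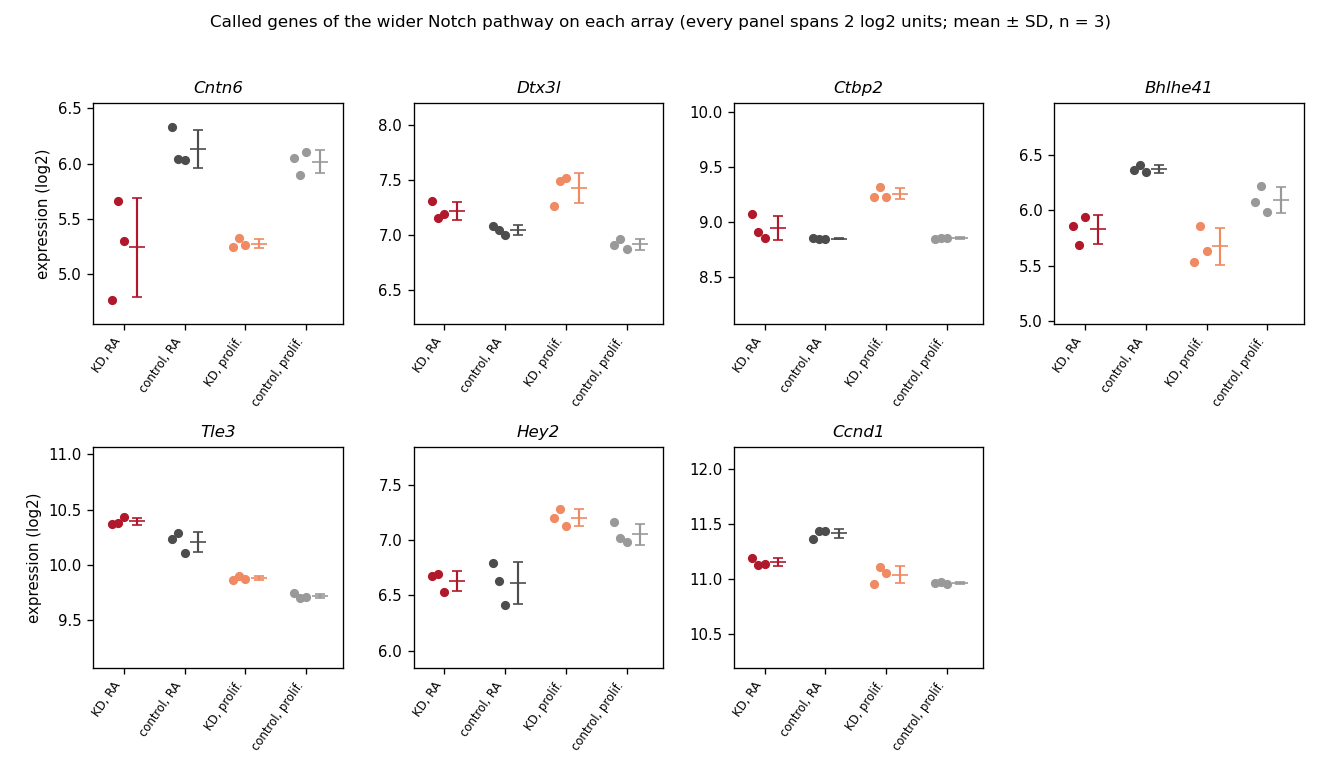
Expression of the 7 called genes of the wider pathway on each array (y axis, log2 intensity; each panel spans 2 log2 units), with the group mean ± SD beside the points (n = 3). Cntn6 and Bhlhe41 lie lower in both KD groups, Tle3 lies higher and Hey2 lower in both RA groups, and Dtx3l and Ctbp2 lie higher in KD cells in both media, called while proliferating.

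The proneural factors, which Hes proteins repress, showed no called change. Of 9 measured, including Neurog1, Neurog2, Neurod1, Atoh1 and Insm1, 0 were called in any of the 5 comparisons. Only 2 of the 9 passed the variance filter and could be called. At an unadjusted p under 0.05, 1 passed for KD against control in RA, 0 for KD against control while proliferating, 2 for RA in KD cells, 1 for RA in control cells and 0 for the difference between the RA responses, of 9 each, against the 33.0%, 30.1%, 31.0%, 28.1% and 14.8% of all genes given above. Their changes ranged from -0.21 to 0.22 over the comparisons of RA with proliferation and from -0.17 to 0.089 over those of KD with control. Insm1, a zinc finger factor of neuroendocrine differentiation, was 0.22 higher with RA in KD cells (adjusted p = 0.023, limma, all genes), short of the fold cutoff. Myt1, a zinc finger factor of neuronal commitment, was lower with RA in KD cells by 0.21 and lower in KD than in control cells in RA by 0.17 (adjusted p = 0.00781 and 0.023, limma, all genes), also short of it.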

How the data were processed

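RNA of 12 samples, 3 in each of 4 groups, was hybridised to single-colour Affymetrix Mouse Gene 1.0 ST arrays. The deposited values are log2 expression values per probe set, which the authors produced from the scanner files with RMA and quantile normalisation in R, at gene level. Their software versions are not stated. Since this scaling equalises the arrays, differences in RNA content between cells are lost, and precision is set by the 3 arrays a group. A single gene symbol was assigned to 21789 of 35556 probe sets, several to 1621 (not used) and none here to 12146; 21698 of the 21789 matched RefSeq by gene identifier, 91 kept their symbol and 0 symbols changed. Each of the 19938 genes was represented by its most variable probe set (interquartile range over the 12 arrays), and the lower 50% of genes by that range were dropped, which left 9969. Group means were fitted with limma 3.58.1 in R 4.3.3 over all 12 arrays, with eBayes and Benjamini-Hochberg adjustment (calls at an adjusted p under 0.05 with a change of 1.3-fold or more). In all, 5 comparisons were made: KD with control in RA and while proliferating, RA with proliferating in KD and in control cells, and the difference between the RA responses. The scripts were tested on simulated data. Named were the 10 genes, the called genes of the fixed pathway lists with uncalled ones given by values only, and the 3 genes most and least correlated with a called gene of the 10; as 0 were called, Notch2 and Hey1 were used. The genes and lists were chosen with earlier results of these data known. Promoter windows are RefSeq GRCm38.p6. Samples were not paired by replicate number, since the labels do not state a pairing. Other normalisations, filters, fits and left-out arrays were tried as alternatives.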

Additional observations from a re-analysis of the deposited data

Results flagged for a closer look

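The RA responses of KD and control cells differed, by the test of the difference itself, for 2 genes of the wider Notch pathway and for 0 of the 10 Notch genes. By the adjusted p alone, in the fit past the variance filter that gave the values below, the difference passed for 206 of 9969 genes. The 2 genes also passed in the fit with all genes (adjusted p = 0.0235 for Tle4 and 0.0481 for Ccnd1, limma), where 0.667% of all genes did. The RA response of Tle4, a Groucho family corepressor, was lower in KD than in control cells by a log2 value of -0.3757 ± 0.061 (SE; adjusted p = 0.0175, limma), with 8.87, 8.89 and 8.92 in RA-treated KD cells and 9.23, 9.20 and 9.16 in RA-treated control cells, against 9.10, 9.05 and 9.01 in proliferating KD cells and 9.02, 8.98 and 8.95 in proliferating control cells. The RA response of Ccnd1 was lower in KD than in control cells by a log2 value of -0.3347 ± 0.067 (SE; adjusted p = 0.0355, limma).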

How the results depend on the processing

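The count of called Notch genes was 0 in all 5 comparisons under every alternative but 2. Without the fold cutoff it was 2 for RA in KD cells (Notch2 and Hey1) and 1 for RA in control cells (Notch2), and leaving out 1 array gave between 0 and 1 for RA in KD cells. Without the fold cutoff the counts over all genes were 3726 for KD against control in RA (769 with it), 3485 while proliferating (694), 3652 for RA in KD cells (991), 3298 for RA in control cells (931) and 206 for the difference between the RA responses (124). Leaving out 1 array at a time gave 756 to 841, 668 to 733, 951 to 1017, 923 to 960 and 41 to 137 in the same order, the 41 without replicate 3 of the RA-treated control cells. With the replicate block the counts were 773, 696, 990, 934 and 94, and the block changed no call of the 10 genes or of a called pathway gene; same-numbered arrays of different groups correlated between -0.078 and 0.208 over 18 pairs, with 4 above 0.1, so the numbers were not taken as pairs. Near-zero values changed sign. The RA change of Hes1 in KD cells (0.014) was -0.0088 after a second quantile normalisation, -0.011 with arrays centred on their medians, -0.003 with array weights and between -0.073 and 0.0902 with 1 array left out. The difference between the RA responses of Notch2 (-0.0092) was 0.0021 after a second quantile normalisation and between -0.049 and 0.017 with 1 array left out. The cause was not tested. Of 1040 values of the 10 genes under alternatives, 64 had the opposite sign to their main value; these main values were 0.067 or less in size, and the alternatives 0.085 or less. Of 231 values of called pathway genes, 4 lost the call. The count of other called pathway genes, recomputed as an alternative chosen after seeing the data, was 21, 21, 14, 17 and 2 without the fold cutoff in the same order, against 2, 4, 2, 3 and 0 with it. For the difference between the RA responses it was 1 under 8 further alternatives, 5 of which left out 1 array, through Tle4, Dtx3 or Dtx3l. Leaving out 1 array gave 3 to 5 for KD against control while proliferating and 2 to 3 for RA in control cells. The count of Notch genes with intervals within 1.3-fold, also recomputed after seeing the data, was 9 or 10 for KD against control in RA, 9 wherever Hes1 lay outside, and did not move for KD against control while proliferating or for RA in KD or control cells. For the difference between the RA responses that count ranged from 7 to 9. It was 7 without replicate 3 of the proliferating control cells, with Dll1, Hes1 and Hey1 outside. No scaling moved the median of all genes by over 0.1. Counting probe sets with several symbols gave no value, since 0 of the 10 genes are in them.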
